A study of Mus musculus with 26 samples.

Results

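Mouse chromosome 8 was followed through 504 of its genes, taken from the 24421 genes of a count table of mouse embryonic stem cells (ESCs). The members were chosen by a measured value, a mean of at least 8 CPM (counts of a gene scaled to the size of the library) over all 26 libraries. Of the 1173 chromosome 8 genes in the table, 535 passed that limit, and 31 of these were left out by name (subunits of the respiratory chain, the ribosome and the proteasome, and single genes such as Zfp42 and Cdh1). The 3 genes just inside the limit were Arv1 (8.17 CPM), Kcnn1 (8.30 CPM) and Mlycd (8.43 CPM), and the 3 just outside it were Zmat4 (7.99 CPM), Zfp423 (7.96 CPM) and Aga (7.95 CPM). Members ran from position 3150922 to position 129234046 of chromosome 8 (mm10), with a median level of 49.8 CPM, and all 504 passed the low-count filter of the tests.

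The series deals with ERR beta, an orphan nuclear receptor of ESCs encoded by Esrrb, and held 7 groups of 2 clones. WT_mock was wild type with no ectopic receptor (clones 5-2 and 5-5), and KO_mock was ERR beta -/- with none (12-1 and 12-3). The other groups were ERR beta -/- cells carrying wild-type ERR beta (KO_ERRb_wt, 8-3 and 8-4), ERR beta deficient in binding DNA (KO_ERRb_DBDm3, 9-6 and 9-8), TFIIH (KO_ERRb_DBDm6, 10-24 and 10-26) or coactivators (KO_ERRb_AF2M6, 32-25 and 32-31), or wild-type ERR gamma (KO_ERRg_wt, 14-1-10 and 14-11). All groups, WT_mock included, were given 2 µg/ml doxycycline, which induces the construct, for 3 days after 1600 cells had been seeded. Each clone gave 2 libraries of total RNA (1 in KO_ERRg_wt) with 21276790 to 30021667 counts each, and the libraries of a clone were summed, so n = 2 clones in every group. A group's 2 clones carry whatever set those clones apart, including how each was made and passaged, which cannot be told apart from the group.

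Genes on a chromosome usually follow its copy number, so that the RNA of most genes on a gained or lost chromosome moves by a similar ratio, while single genes can be held apart by their own regulation. Gain of a whole chromosome 8 is among the recurrent karyotype changes of cultured mouse ESCs. No DNA was measured here, and the number of copies of chromosome 8 in any clone was not tested.

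Exonic Esrrb reads stood at 560 to 602 CPM in the clones of WT_mock, at 276 to 277 CPM in KO_mock, at 410 to 429 CPM in KO_ERRb_wt and at 438 to 553 CPM in the 3 mutant groups. KO_ERRg_wt, labelled ERR beta -/- with ERR gamma as its ectopic receptor, had 466 to 477 CPM of Esrrb, above KO_mock. One count per gene does not show which exons the reads came from, so these values do not check the deletion. Esrrg reached 124 to 229 CPM in KO_ERRg_wt and at most 0.24 CPM in the clones of the other groups. All 10 ESC markers looked at (Pou5f1, Sox2 and Nanog among them) were above 1 CPM in each group, with a summed level of 3947 to 5081 CPM. The 7 fibroblast markers summed to at most 5.51 CPM and the 6 primitive endoderm markers to at most 9.25 CPM. The 5 mesoderm markers, 3 of them under 1 CPM in every group, summed to 45.4 to 61.0 CPM in KO_mock and KO_ERRb_wt, 15.3 to 21.9 CPM in WT_mock and 7.42 to 42.3 CPM in the 4 other groups. The 5 neural markers summed to 86.1 to 96.8 CPM in KO_mock and 55.0 to 78.9 CPM elsewhere. Tubb3, among these 5, is itself a chromosome 8 member, so this sum is not independent of the members. Summed trophoblast markers were 79.2 to 187 CPM in the 4 groups with mutant receptors or ERR gamma and 28.7 to 49.1 CPM in the other 3, with 2 or 3 of the 6 under 1 CPM in every group, and Elf5 at 0 in 4 of the 7 groups. The part of these markers in the results below, those against KO_mock included, was not tested, and in bulk RNA fewer cells of a type and less RNA per cell cannot be told apart.

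Before the values, 3 promoters are shown from RefSeq (GRCm38.p6, the same coordinates as mm10), each with 250 bases before and 50 after the annotated start, 5′ to 3′. They were chosen after their values had been seen. Dctd (deoxycytidylate deaminase) was above the shift in all 4 groups against KO_mock, but against WT_mock only in KO_ERRb_DBDm6 and KO_ERRb_AF2M6, Fat1 (a large protocadherin) was below the shift against KO_mock in KO_ERRb_DBDm6 and KO_ERRg_wt and above it against WT_mock in the 3 mutant groups, and Klf2 (a naive pluripotency factor) rose in the 3 mutant groups while the chromosome was low. Capitals mark the 7-letter core AAGGTCA of the ERR response element, on either strand. In Dctd it lies on the plus strand, beginning 25 bases after the start, and in Fat1 on the minus strand, beginning 19 bases after the start. Both stretches thus lie past the annotated start and not before it, and in Fat1 the stretch also follows an ATG in the printed letters. Whether these windows hold the promoters used in these cells was not tested. Klf2 has no match in its window.
Dctd, chr8:48109708-48110007, plus strand: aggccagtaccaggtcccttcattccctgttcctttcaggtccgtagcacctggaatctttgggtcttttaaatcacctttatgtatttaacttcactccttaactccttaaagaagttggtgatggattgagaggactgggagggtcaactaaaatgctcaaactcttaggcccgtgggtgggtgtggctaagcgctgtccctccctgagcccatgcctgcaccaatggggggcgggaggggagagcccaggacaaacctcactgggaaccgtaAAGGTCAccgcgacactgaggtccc
Fat1, chr8:44949958-44950257, plus strand: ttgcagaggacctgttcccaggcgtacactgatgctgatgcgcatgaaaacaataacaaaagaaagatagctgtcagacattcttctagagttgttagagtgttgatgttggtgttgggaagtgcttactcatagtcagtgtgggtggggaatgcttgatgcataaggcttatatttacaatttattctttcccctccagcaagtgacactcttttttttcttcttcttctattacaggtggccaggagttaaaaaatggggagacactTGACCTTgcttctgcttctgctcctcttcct
Klf2, chr8:72318812-72319111, plus strand: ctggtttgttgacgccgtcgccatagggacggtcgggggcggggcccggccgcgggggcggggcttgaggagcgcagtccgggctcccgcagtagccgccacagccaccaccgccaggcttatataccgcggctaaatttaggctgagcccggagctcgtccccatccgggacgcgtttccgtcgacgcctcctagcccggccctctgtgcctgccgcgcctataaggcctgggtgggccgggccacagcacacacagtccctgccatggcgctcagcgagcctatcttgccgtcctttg

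The 9-letter element TCAAGGTCA, which contains the core, was found in 0 member promoters, against 0.407% of the 27025 promoters of the table. The core was found in 7 member promoters, 1.92% of those matched, against 4.66% of all promoters. Only 365 of the 504 members could be matched, 351 by symbol and 14 by an older symbol. At 72.4%, under the 80% needed, the comparison of shares is void, and a match is a description of letters, not of binding.

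Relative to WT_mock, chromosome 8 was lower in all 8 clones of the 4 groups KO_ERRb_DBDm3, KO_ERRb_DBDm6, KO_ERRb_AF2M6 and KO_ERRg_wt, and not in the other 6 clones. Whether it was low in these 8 clones or high in the other 6 was not tested. Shift, shifted and unshifted are names for this relation only. Dosage was taken in each clone as the median over the 504 members of the log2 ratio to the WT_mock mean, with 0.5 CPM added to each level, and each WT_mock clone was set against the other. It was -0.45 and -0.50 in clones 9-6 and 9-8 of KO_ERRb_DBDm3. It was -0.48 and -0.40 in clones 10-24 and 10-26 of KO_ERRb_DBDm6. It was -0.48 and -0.45 in clones 32-25 and 32-31 of KO_ERRb_AF2M6, and -0.46 and -0.48 in clones 14-1-10 and 14-11 of KO_ERRg_wt. The 8 clones therefore held 70.8% to 75.7% of the WT_mock level at the median member. KO_mock stood at 0.06 and 0.05, KO_ERRb_wt at 0.04 and 0.05, and the WT_mock clones at -0.02 and 0.02. These ranges do not overlap, and the 2 libraries of a clone differed by at most 0.028.

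The shift was spread over most members. In the 8 clones 85.3% to 94.0% of the members lay below the WT_mock mean, against 41.5% to 42.5% in the 4 clones of KO_mock and KO_ERRb_wt. The other genes of the same clones moved the opposite way by a little: the median of 8161 genes at 8 CPM or more outside chromosomes 6, 8 and 14 was 0.08 to 0.11 in the 8 clones. Set against that median, chromosome 8 lay at -0.59 to -0.49 in the 8 clones, 66.7% to 71.2% of its relation in WT_mock, and between -0.01 and 0.01 in KO_mock and KO_ERRb_wt. As a scale only, a ratio of 2 to 3 is a log2 value of -0.585 and a ratio of 3 to 4 is -0.415. The share of all counts that fell on chromosome 8 was 5.81% to 5.95% in the libraries of WT_mock, KO_mock and KO_ERRb_wt and 4.11% to 4.46% in those of the 4 groups.

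**Figure D1:**
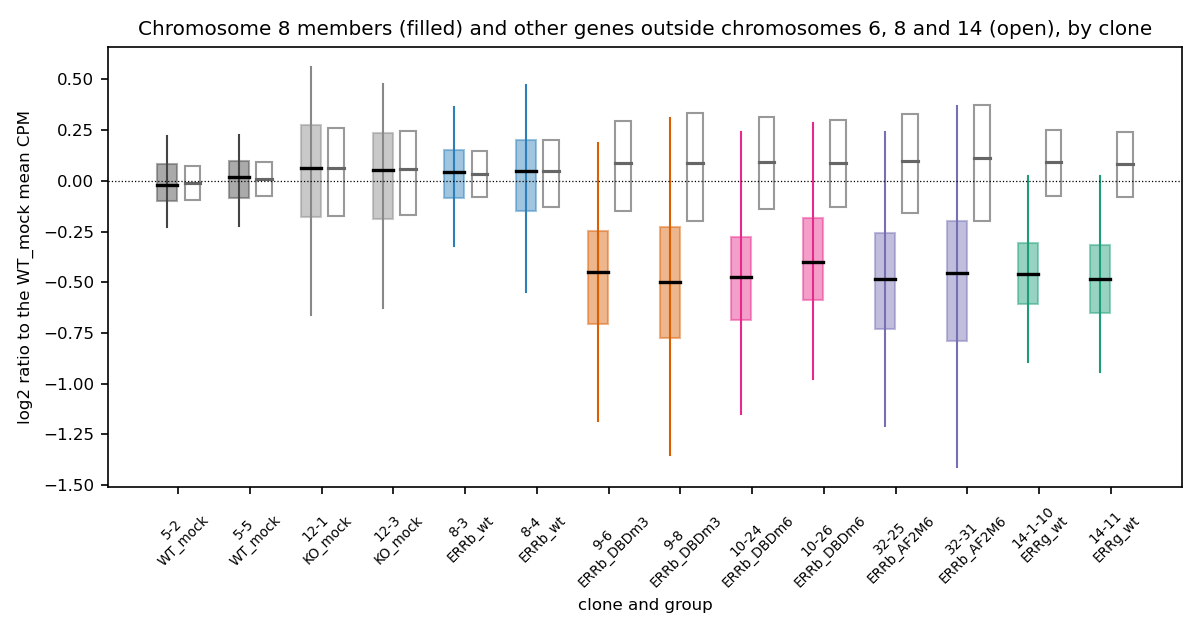
Log2 ratio to the WT_mock mean CPM (vertical axis) in each of the 14 clones (horizontal axis, with group). Filled boxes are the quartiles of the 504 chromosome 8 members with the median as a black line and lines to the 5th and 95th percentiles, and open boxes are the quartiles and median of 8161 genes outside chromosomes 6, 8 and 14. The filled boxes of the last 8 clones lie below the open ones, with medians of -0.50 to -0.40.

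Chromosome 8 genes that the choice of members had left out showed the shift as well. The 260 tested genes under 8 CPM had medians of -0.54 to -0.40 in the 8 clones, and the 31 genes left out by name had medians of -0.41 to -0.27. By level, the median was -0.60 to -0.46 for the 168 members with the lowest levels (8.17 to 32.5 CPM), -0.51 to -0.39 for the next 168 and -0.47 to -0.37 for the 168 with the highest (76.9 to 955 CPM). The order of these levels was not tested.

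Along the chromosome all 13 bins of 10 megabases (Mb) had medians below 0 in each of the 8 clones. The bin from 30 to 40 Mb held 19 members, Tex15 among them, and came closest to 0, at -0.41 to -0.16, with -0.22 and -0.16 in the KO_ERRb_DBDm6 clones. The bin from 110 Mb, with 48 members, reached -0.67 in clone 9-8 and was -0.44 in the highest of the 8 clones. In KO_mock and KO_ERRb_wt the bins ran from -0.08 to 0.16. In the WT_mock clones, each set against the other, they ran from -0.13 to 0.13, close to the -0.16 of the shifted bin nearest to 0.

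**Figure D2:**
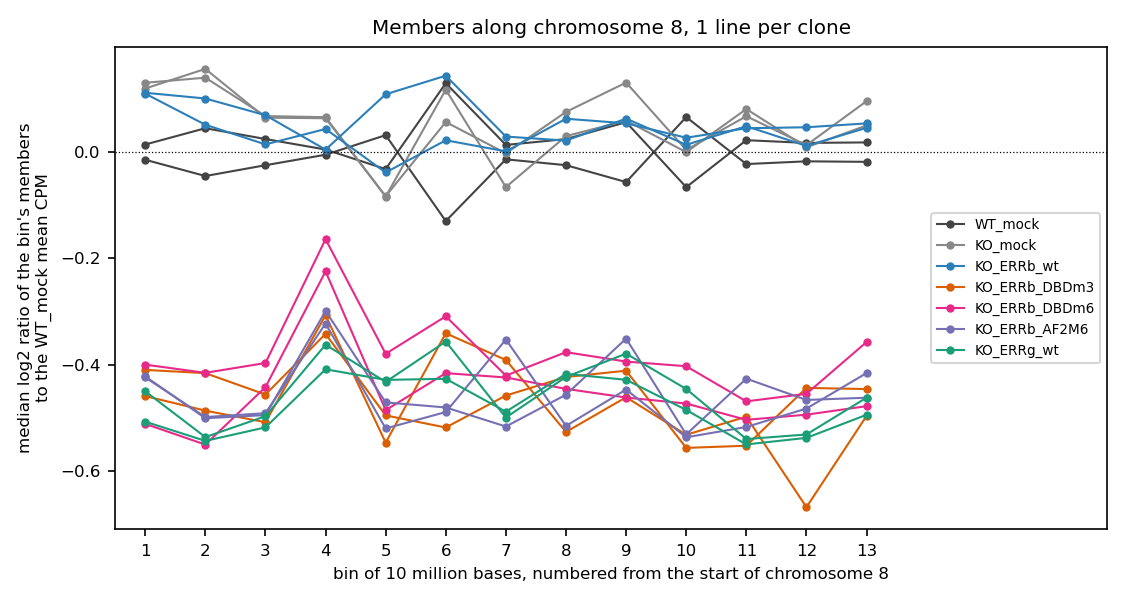
Median log2 ratio to the WT_mock mean CPM of the members in each bin (vertical axis) against the bin's number from the start of chromosome 8, 10 Mb each (horizontal axis), 1 line per clone and 1 colour per group. The 8 lines of the 4 shifted groups stay below 0 in all 13 bins, and the highest value among them is -0.16, in bin 4.

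Without ERR beta and with no ectopic receptor, chromosome 8 as a whole stayed close to WT_mock. KO_mock against WT_mock had 87 members lower and 122 higher at an adjusted p under 0.05 in edgeR, where 19.4% of all 15238 tested genes were lower and 18% higher, and the median member changed by 0.05. The largest falls among members with the clones of the groups apart were in Cyba (a subunit of the NADPH oxidase), Mef2b, Adgre5, Sfrp1 (a secreted Wnt inhibitor), Mlycd (malonyl-CoA decarboxylase), Klhl26, Kcnn1 (a calcium-activated potassium channel) and Cdyl2 (a chromodomain protein). Sfrp1 stood at 97.6 and 99.2 CPM in WT_mock and 31.5 and 31.7 CPM in KO_mock, a log2 fold change of -1.64 ± 0.18 (SE, n = 2 clones per group, adjusted p = 0.00018). Cyba stood at 49.8 and 30.8 CPM in WT_mock and at 9.03 and 10.5 CPM in KO_mock (-2.05 ± 0.35, adjusted p = 0.0018). The 2 groups of clones do not overlap in either gene. Mlycd and Kcnn1 had means of 15 and 13.3 CPM in WT_mock and 5.61 and 5.93 CPM in KO_mock, so they passed the limit of 8 CPM only through the groups where they are high, and their falls rest in part on that choice. Mef2b shares 93.8% of its exonic bases with a read-through gene, so that its counts are uncertain. The call of Adgre5 was lost without clone 5-2, 12-1 or 12-3 (adjusted p = 0.23, 0.17 and 0.070 in edgeR), as was that of Klhl26 (adjusted p = 0.10, 0.069 and 0.088).

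The largest rises in KO_mock were in Ccdc102a, Kifc3 (a kinesin), Tubb3 (a beta tubulin), Gas8 (a ciliary dynein regulator), Fat1, Palld (an actin-bundling protein), Ubxn8 and Tbc1d9. Fat1 rose from 310 and 312 CPM in WT_mock to 615 and 552 CPM in KO_mock (0.91 ± 0.13, adjusted p = 0.00071). Gas8 rose from 13.6 and 15.4 to 28.5 and 26.4 CPM (0.92 ± 0.11, adjusted p = 0.00029). The call of Tubb3 was lost without clone 5-2, 5-5 or 12-1 (adjusted p = 0.11, 0.069 and 0.13), that of Palld without any one of the 4 clones (adjusted p = 0.052 to 0.11), and that of Tbc1d9 without 5-2 (adjusted p = 0.077). Without clone 5-2, 75 members were called instead of 209, without clone 12-1 the number was 90, and without 12-3 it was 124.

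Putting wild-type ERR beta back changed few members. KO_ERRb_wt against KO_mock had 3 members lower (Fat1 and Hmgxb4 among them) and 2 higher (Sfrp1 and Ssbp4), near the 0.781% lower and 1.07% higher of all tested genes. Sfrp1 stood at 61.3 and 48.9 CPM in KO_ERRb_wt, above both KO_mock clones and below both WT_mock clones (0.80 ± 0.17, adjusted p = 0.047). Fat1 stood at 345 and 434 CPM (-0.58 ± 0.13, adjusted p = 0.048). Without clone 12-1, 12-3 or 8-3 edgeR called 0 members, with 48, 65 and 47 at an unadjusted p under 0.05, and the adjusted p of Sfrp1 was then 0.30, 0.23 and 0.35. DESeq2 called 38 members in this comparison with all clones.

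In the 4 shifted groups most members were called lower than in KO_mock. Against this shared control, KO_ERRb_DBDm3 had 374 members lower and 7 higher (13.3% and 12.4% of all tested genes), with a median log2 fold change of -0.54. KO_ERRb_DBDm6 had 361 lower and 24 higher (20.6% and 20.8%), with a median of -0.50. KO_ERRb_AF2M6 had 381 lower and 18 higher (19.1% and 18.1%), with a median of -0.55. KO_ERRg_wt had 367 lower and 15 higher (18.3% and 20%), with a median of -0.53. Of the 8161 genes outside chromosomes 6, 8 and 14, 9.39%, 17.9%, 14.6% and 17.3% were lower in the same order. The members' fold changes were as wide as those of other genes: their interquartile ranges were 0.37, 0.45, 0.40 and 0.47, against 0.34, 0.47, 0.41 and 0.44.

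**Figure D3:**
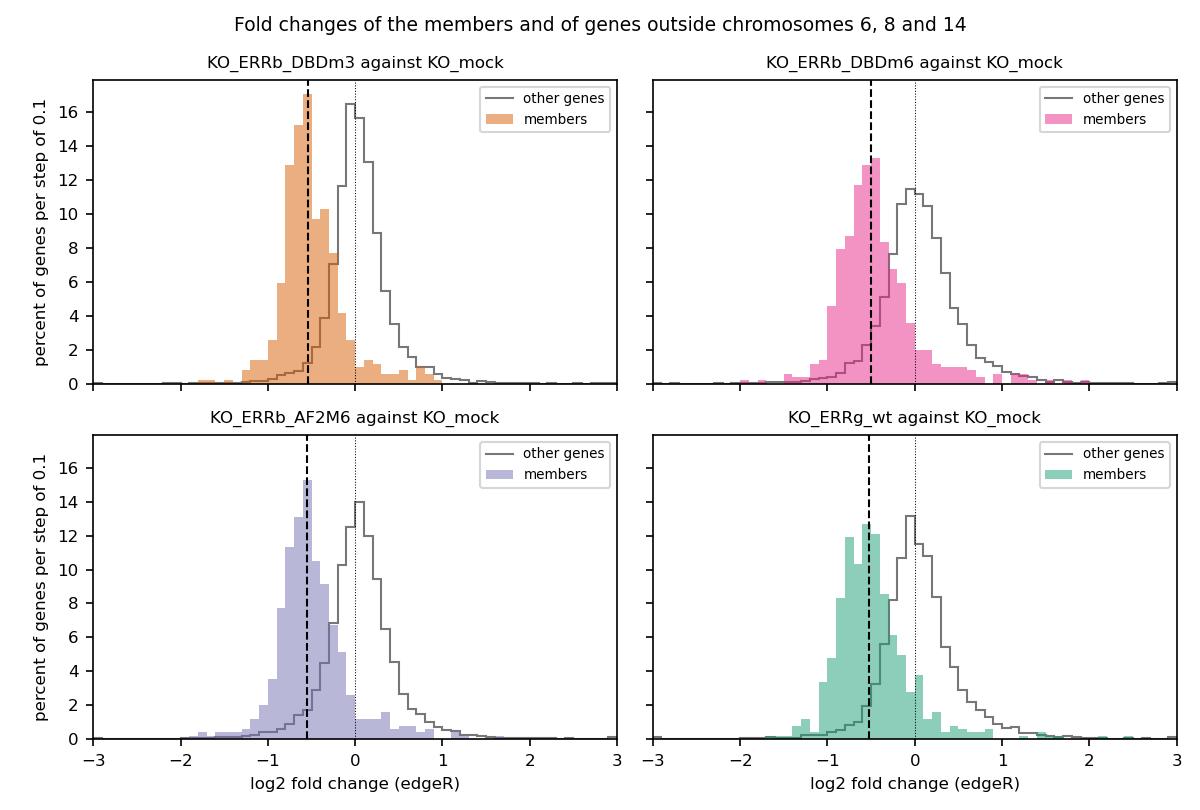
Percent of genes (vertical axis) per step of 0.1 in log2 fold change (horizontal axis) in the comparison of each shifted group with KO_mock, for the 504 members (filled) and for 8161 genes outside chromosomes 6, 8 and 14 (line). The dashed line is the members' median, -0.54, -0.50, -0.55 and -0.53 in the 4 panels, and the filled shapes have about the width of the lines.

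Among the most abundant members, Calr, Mt1, Sf3b3, Cnot1, Abce1 and Smarca5 were not called off the shift in any of the 4 comparisons with KO_mock, whereas Ash2l, Mt2 and Aars were called above it in at least 1. Per length, over all libraries, high levels among them were those of Mt1 (1205 RPKM) and Mt2 (1022 RPKM), which are metal-binding metallothioneins, and of Calr (calreticulin, a chaperone of the endoplasmic reticulum, 492 RPKM). Calr stood at 1034 and 1105 CPM in WT_mock, 1226 and 1218 CPM in KO_mock, 1099 and 1094 CPM in KO_ERRb_wt and 699 to 939 CPM in the 8 shifted clones. The spread of the 8 clones lies under that of the other 6. Ash2l, a subunit of histone H3K4 methyltransferase complexes, was above the shift in all 4: its log2 fold changes against KO_mock were -0.24, -0.14, -0.31 and -0.23 in KO_ERRb_DBDm3, KO_ERRb_DBDm6, KO_ERRb_AF2M6 and KO_ERRg_wt, with departures from the shift of 0.29, 0.36, 0.22 and 0.30. Aars, the alanyl-tRNA synthetase, stood at 559 and 415 CPM in KO_ERRb_DBDm3 and at 842 and 813 CPM in KO_ERRg_wt, where KO_mock had 817 and 806 CPM. Members nearest to the shift in all 4 comparisons were Xab2, Coprs, Hmgb2, Shcbp1, Pcid2 and Babam1. Hmgb2, a chromatin protein of dividing cells, stood at 388 and 398 CPM in KO_mock and between 258 and 290 CPM in the 8 clones, with log2 fold changes of -0.52, -0.48, -0.51 and -0.52.

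Of all 504 members, 74.2%, 71.6%, 75.6% and 72.8% were called lower than KO_mock in KO_ERRb_DBDm3, KO_ERRb_DBDm6, KO_ERRb_AF2M6 and KO_ERRg_wt. The lists by role are to be read beside these shares. Members that process RNA or take part in translation were those most often called lower than KO_mock. Of 46 such members 44, 44, 41 and 44 were lower in KO_ERRb_DBDm3, KO_ERRb_DBDm6, KO_ERRb_AF2M6 and KO_ERRg_wt, and 0 were higher in any of the 4, also at an unadjusted p under 0.05 in edgeR. Their medians were -0.60, -0.61, -0.58 and -0.76. They did not all follow the shift itself. In the fit with the chromosome's median taken out, described below, 8, 14, 11 and 23 of them were below the shift and 4, 4, 6 and 2 above it. Their medians there were -0.07, -0.12, -0.06 and -0.23. Of all tested genes, 10.6%, 18.4%, 16.6% and 16% were lower in that fit and 12.5%, 21.4%, 18.5% and 20.5% higher. The same list had 30 members higher and 3 lower in KO_mock against WT_mock, where 18% of all tested genes were higher and 19.4% lower. Its median there was 0.28, where the median of all members was 0.05 and that of the 8161 other genes 0.06. Nup93, a nuclear pore scaffold, stood at 181 and 184 CPM in WT_mock, 215 and 209 CPM in KO_mock and 119 to 136 CPM in the 8 clones. Sf3b3, a splicing factor, stood at 737 and 739 CPM in WT_mock, 823 and 807 CPM in KO_mock and 516 to 575 CPM in the 8 clones. In both genes the 8 clones lie below the other 6.

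Members for cell division, DNA repair and telomeres had 31, 29, 31 and 32 of 38 lower and 0 higher, and those for folding, secretion and vesicle traffic 39, 35, 38 and 37 of 43 lower and 0 higher, again with 0 higher at an unadjusted p under 0.05. Chromatin and transcription regulators had 26, 23, 27 and 27 of 33 lower, with 2, 3, 2 and 1 higher. Cdyl2 had the highest fold change of that list in each of these 4 comparisons. Brd7, a bromodomain protein, stood at 133 and 134 CPM in KO_mock and 74.9 to 81.4 CPM in the 8 clones. Sequence-specific transcription factors had 12, 12, 12 and 13 of 18 lower, with Klf2 the 1 higher in each of the 3 mutant groups and 0 higher in KO_ERRg_wt. E2f4, a cell cycle regulator, stood at 233 and 226 CPM in KO_mock and 123 to 144 CPM in the 8 clones.

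Signalling members had 25, 26, 26 and 23 of 35 lower and 1, 3, 2 and 2 higher. Prkaca, the catalytic subunit of protein kinase A, stood at 66.8 CPM in both KO_mock clones, at 28.2 to 39.0 CPM in the 6 mutant clones and at 48.0 CPM in both KO_ERRg_wt clones. Metabolic members had 29, 27, 29 and 22 of 42 lower and 0, 1, 1 and 0 higher (Dctd in both cases), and medians of -0.46, -0.40, -0.49 and -0.37. Relative to the shift, 2, 3, 6 and 3 metabolic members were below and 8, 11, 8 and 15 above in the same order of groups. Their medians there were 0.07, 0.09, 0.03 and 0.16. These counts are to be read beside the shares of all tested genes in that fit, given above with the RNA list. The adhesion list held 8 members and had 2, 3, 3 and 4 lower and 0, 1, 1 and 1 higher, which was Cotl1 each time. The lists' differences from one another and from all members were not tested.

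Genes that escaped were sought with a second fit, in which each clone's own chromosome 8 median was taken out, so that a member is called above or below the shift and not above or below KO_mock. In KO_ERRb_DBDm3 67 members were above and 68 below the shift, where 12.5% and 10.6% of all tested genes were higher and lower in that fit. In KO_ERRb_DBDm6 112 were above and 101 below (21.4% and 18.4%), in KO_ERRb_AF2M6 84 and 100 (18.5% and 16.6%), and in KO_ERRg_wt 98 and 108 (20.5% and 16%). These are shares of 13.3%, 22.2%, 16.7% and 19.4% of members above and 13.5%, 20%, 19.8% and 21.4% below, near the shares in all tested genes. All tested genes include chromosome 8 and genes under 8 CPM. Of the 8161 genes at 8 CPM or more outside chromosomes 6, 8 and 14, 15.3%, 26.1%, 22.9% and 23.4% were higher in that fit. In the same order, 9.04%, 17.8%, 14.4% and 17.03% of them were lower. Against this set, members were less often above and more often below in all 4 groups. These differences were not tested, and the median of the 8161 genes was not taken out. The counts depend on the clones: in KO_ERRb_DBDm3 135 members were off the shift in all, 34 without clone 12-1, 37 without 12-3, 64 without 9-8 and 210 without 9-6. With 1 clone of either group left out, the number ran from 122 (without 10-26) to 151 in KO_ERRb_DBDm6, from 91 (without 12-1) to 142 in KO_ERRb_AF2M6 and from 115 (without 12-1) to 130 in KO_ERRg_wt. They depend on the control as well. Against WT_mock in place of KO_mock, a choice made after the values had been seen, 118 members were above and 121 below in KO_ERRb_DBDm3 (23.9% and 22.8% of all genes), 101 and 100 in KO_ERRb_DBDm6 (22.9% and 21.9%), 120 and 143 in KO_ERRb_AF2M6 (26.9% and 26.9%), and 53 and 56 in KO_ERRg_wt (14.2% and 10.8%).

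Members above the shift lay on either side of KO_mock, and few were called higher than it. Their fold change was above 0 in 32 of 67, 57 of 112, 41 of 84 and 54 of 98 members in KO_ERRb_DBDm3, KO_ERRb_DBDm6, KO_ERRb_AF2M6 and KO_ERRg_wt. Of the 67 members above it in KO_ERRb_DBDm3 7 were called higher and 10 lower in the ordinary fit, with a median fold change of -0.01. In KO_ERRb_DBDm6 24 of 112 were called higher, in KO_ERRb_AF2M6 18 of 84 and in KO_ERRg_wt 15 of 98. Members called off neither way had medians of -0.54, -0.51, -0.55 and -0.52.

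A first set of escaping members was high in the mutant receptor groups whichever control was used. Tex15, a germ cell gene needed in meiosis, stood at 24.4 and 27.9 CPM in WT_mock, 29.9 and 34.2 CPM in KO_mock and 19.4 and 25.8 CPM in KO_ERRb_wt. It stood at 43.1 and 76.7 CPM in KO_ERRb_DBDm3, 85.0 and 96.7 CPM in KO_ERRb_DBDm6, 118 and 79.9 CPM in KO_ERRb_AF2M6, and 26.2 and 24.7 CPM in KO_ERRg_wt. The 6 mutant clones are above the other 8. Its departure from the shift was 1.44 ± 0.26, 2.00 ± 0.26 and 2.15 ± 0.26 in the 3 mutant groups (adjusted p = 0.0040, 0.00024 and 0.00020) and 0.20 ± 0.26 in KO_ERRg_wt (adjusted p = 0.59). KO_ERRg_wt was lower than KO_ERRb_DBDm3 in a direct comparison (-1.23 ± 0.26, adjusted p = 0.0076), a call lost without clone 9-8, 14-1-10 or 14-11 (adjusted p = 0.053, 0.051 and 0.059). Its ordinary fold change in KO_ERRb_DBDm3 (0.90 ± 0.25, adjusted p = 0.023) was not called without clone 12-1, 12-3 or 9-8 (adjusted p = 0.14, 0.077 and 0.26).

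Kcnk1, a two-pore potassium channel, stood at 8.95 and 10.3 CPM in WT_mock, 12.1 and 13.9 CPM in KO_mock, 12.9 and 11.2 CPM in KO_ERRb_wt, and 11.6 and 9.78 CPM in KO_ERRg_wt. In the mutant groups it stood at 18.6 and 25.5, 30.7 and 27.3, and 28.4 and 28.4 CPM. Here too the 6 mutant clones lie above the other 8, with departures of 1.29 ± 0.17, 1.65 ± 0.17 and 1.65 ± 0.17 (adjusted p = 0.0010, 5.2e-05 and 6.7e-05). KO_ERRg_wt was lower than KO_ERRb_DBDm3 (-1.04 ± 0.16, adjusted p = 0.0017). Klf2 followed the same order: 47.9 and 67.0 CPM in WT_mock, 91.3 and 77.4 CPM in KO_mock, 73.8 and 87.1 CPM in KO_ERRb_wt, 79.1 and 85.3 CPM in KO_ERRg_wt, and 120 and 161, 145 and 187, and 155 and 142 CPM in the mutant groups. Its departures were 1.27 ± 0.18, 1.47 ± 0.18 and 1.34 ± 0.18 in those 3 groups (adjusted p = 0.0016, 0.00017 and 0.00035) and 0.49 ± 0.18 in KO_ERRg_wt (adjusted p = 0.054). The ordinary call in KO_ERRb_DBDm3 (0.74 ± 0.18, adjusted p = 0.015) was lost without clone 12-3 (adjusted p = 0.11) or 9-8 (adjusted p = 0.14), and that in KO_ERRb_AF2M6 without 12-3 (adjusted p = 0.051).

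Cotl1, an actin-binding protein, was above the shift in all 4 groups. It stood at 14.1 and 11.8 CPM in WT_mock and 16.1 and 12.0 CPM in KO_mock, at 22 to 42.7 CPM in the 6 mutant clones and at 33.5 and 31.7 CPM in KO_ERRg_wt. Its ordinary log2 fold change against KO_mock was not called in KO_ERRb_DBDm3 (0.73 ± 0.27, adjusted p = 0.066 in edgeR). Its departures were 1.27 ± 0.26, 1.27 ± 0.26, 1.73 ± 0.26 and 1.75 ± 0.27 (adjusted p = 0.0073, 0.0031, 0.00065 and 0.00067), the first lost without clone 12-3 (adjusted p = 0.073). Adgrg1, an adhesion receptor, stood at 8.40 to 13.7 CPM in the 6 unshifted clones and 14.7 to 22 CPM in the 8 shifted ones, with departures of 1.11 to 1.47. D8Ertd82e stood at 10.4 to 23.2 CPM in the 8 clones against 5.60 to 9.55 CPM in the 6, and like Adgrg1 it was called above the shift in all 4 groups against either control. The mean of D8Ertd82e was 6.03 CPM in WT_mock and 7.67 CPM in KO_ERRb_wt, so it passed the limit of 8 CPM through the groups where it is high, and its place among the members rests in part on that.

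Dctd, whose promoter is shown above, kept its call with either control only in KO_ERRb_DBDm6 and KO_ERRb_AF2M6. The enzyme makes deoxyuridine monophosphate for thymidylate synthesis. Dctd stood at 38.8 and 39.6 CPM in WT_mock, 31.2 and 28.8 CPM in KO_mock and 32.6 and 33.1 CPM in KO_ERRb_wt. It stood at 28.1 and 35.7 CPM in KO_ERRb_DBDm3, 41.3 and 40.5 CPM in KO_ERRb_DBDm6, 39.8 and 46.1 CPM in KO_ERRb_AF2M6 and 28.9 and 26.3 CPM in KO_ERRg_wt. Its departures from KO_mock were 0.62 ± 0.12, 0.95 ± 0.12, 1.04 ± 0.12 and 0.41 ± 0.12, all called. Against WT_mock they were 0.18 ± 0.11, 0.50 ± 0.11, 0.60 ± 0.11 and -0.03 ± 0.12, and the first and the last were not called (adjusted p = 0.22 and 0.86).

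**Figure D4:**
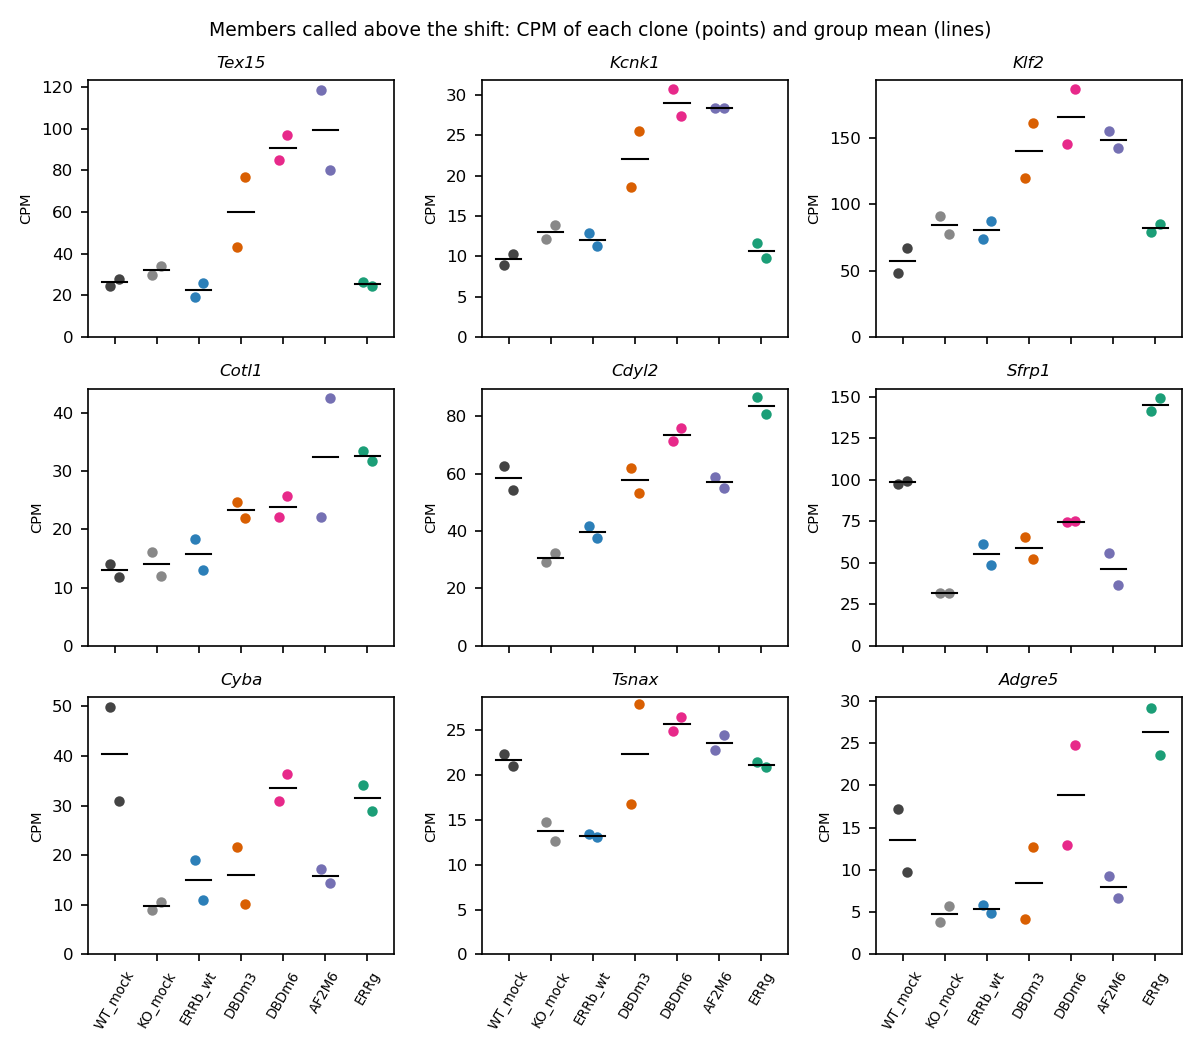
CPM (vertical axes, from 0) of 9 members called above the shift in at least 1 comparison with KO_mock, in the 7 groups (horizontal axes), with a point per clone and a line at the group mean. Tex15, Kcnk1 and Klf2 are highest in the 6 clones with mutant receptors, while Cdyl2, Sfrp1, Cyba and Adgre5 are lower in KO_mock than in WT_mock.

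Members of a second set were lower in KO_mock than in WT_mock, and many of their calls above the shift were not there, or turned, against WT_mock. Sfrp1 stood at 65.3 and 52.2 CPM in KO_ERRb_DBDm3, 74.5 and 74.8 CPM in KO_ERRb_DBDm6, 55.8 and 36.3 CPM in KO_ERRb_AF2M6, and 141 and 149 CPM in KO_ERRg_wt. Set against KO_mock, its departures were 1.42 ± 0.18, 1.74 ± 0.18, 1.07 ± 0.18 and 2.73 ± 0.18, all called. Set against WT_mock, they were -0.27 ± 0.17, 0.04 ± 0.17, -0.62 ± 0.17 and 1.03 ± 0.17 (adjusted p = 0.22, 0.87, 0.0105 and 0.0022), so that the direction in KO_ERRb_AF2M6 turned. In KO_ERRg_wt Sfrp1 was above every other clone of the study, and above KO_ERRb_DBDm3 in the direct comparison (1.30 ± 0.17, adjusted p = 0.00086).

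Cyba stood at 21.7 and 10.2, 30.9 and 36.3, 17.2 and 14.4, and 34.1 and 28.9 CPM in the 4 shifted groups. Against KO_mock its departures were 1.24 ± 0.35, 2.28 ± 0.35, 1.22 ± 0.35 and 2.22 ± 0.35, the first lost without clone 12-1, 12-3 or 9-6 (adjusted p = 0.15, 0.098 and 0.23). Against WT_mock they were -0.87 ± 0.33, 0.17 ± 0.33, -0.89 ± 0.33 and 0.12 ± 0.33, of which the third was called, in the opposite direction (adjusted p = 0.043). Adgre5, an adhesion receptor of leukocytes, ranged from 9.33 to 36.8 CPM among the 4 libraries of KO_ERRb_DBDm6 alone. Its departure there was 2.47 ± 0.49 against KO_mock (adjusted p = 0.0026) and 0.91 ± 0.46 against WT_mock (adjusted p = 0.13). In KO_ERRg_wt Adgre5 stood at 29.1 and 23.6 CPM, above both WT_mock clones (17.2 and 9.74 CPM). It was called there against either control, with departures of 3.00 ± 0.50 and 1.43 ± 0.47 (adjusted p = 0.0012 and 0.045). The highest library of KO_ERRb_wt held 6.72 CPM of Adgre5, and its log2 fold change in KO_mock against WT_mock was -1.50. Adgre5 thus passed the limit of 8 CPM only through the groups where it is high. Its fall in KO_mock and its departures against KO_mock rest in part on that choice. Mef2b (uncertain), Kcnn1 and Zfp827, named above the shift against KO_mock in KO_ERRb_DBDm6 or KO_ERRg_wt, had no call above it against WT_mock in any of the 4 groups. The call of Zfp827 against KO_mock (1.65 ± 0.51, adjusted p = 0.024 in KO_ERRb_DBDm6) was lost without any one of the 4 clones (adjusted p = 0.063 to 0.14).

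Calb2 (calretinin) stood at 32.9 and 31.7 CPM in KO_ERRg_wt, 31.6 and 31.1 CPM in KO_ERRb_wt, 20.5 and 15.9 CPM in KO_mock and 14.4 and 17.2 CPM in WT_mock, and its departure in KO_ERRg_wt (1.36 ± 0.36, adjusted p = 0.013) was lost without clone 12-3 (adjusted p = 0.094) or either clone of that group (adjusted p = 0.060 and 0.054). Against WT_mock it was called as well (1.51 ± 0.36, adjusted p = 0.0125).

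Cdyl2 and Tsnax (translin-associated factor X) were lower in KO_mock than in WT_mock too, but kept most of their calls with either control. Cdyl2 stood at 62.7 and 54.4 CPM in WT_mock, 29.1 and 32.3 CPM in KO_mock and 41.7 and 37.6 CPM in KO_ERRb_wt. It stood at 62.1 and 53.2, 71.5 and 75.9, 58.9 and 55.2, and 86.8 and 80.8 CPM in the 4 shifted groups. Its departures were 1.44 ± 0.10, 1.76 ± 0.10, 1.42 ± 0.10 and 1.98 ± 0.10 against KO_mock, and 0.45 ± 0.10, 0.77 ± 0.10, 0.43 ± 0.10 and 0.99 ± 0.10 against WT_mock, all called. So Cdyl2 was near or above its WT_mock level in clones whose chromosome was low. Tsnax stood at 22.4 and 21.1 CPM in WT_mock, 14.8 and 12.7 CPM in KO_mock and 16.8 to 27.9 CPM in the 8 clones. Its departures against WT_mock, 0.52 ± 0.19, 0.68 ± 0.19, 0.59 ± 0.19 and 0.43 ± 0.19, were called in the 3 mutant groups and not in KO_ERRg_wt (adjusted p = 0.041, 0.012, 0.020 and 0.115).

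Members below the shift fell by more than the chromosome did. Apela, which encodes a peptide ligand of the apelin receptor, stood at 139 and 136 CPM in WT_mock, 136 and 127 CPM in KO_mock and 131 and 140 CPM in KO_ERRb_wt. It stood at 55.1 and 29.5, 39.3 and 37.5, 40.1 and 32.6, and 50.6 and 53.0 CPM in the 4 shifted groups, all under the other 6 clones. Its ordinary log2 fold changes against KO_mock were -1.63 ± 0.21, -1.77 ± 0.21, -1.85 ± 0.21 and -1.34 ± 0.21 (adjusted p = 0.00051, 0.00012, 0.00011 and 0.00071). Beyond the shift it lay at -1.11, -1.28, -1.33 and -0.81, the last lost without clone 12-1 (adjusted p = 0.057) or 14-1-10 (adjusted p = 0.070). Arl2bp, a binding partner of the small GTPase ARL2, stood at 43.0 and 44.5 CPM in KO_mock, 15.3 to 19.3 CPM in the 6 mutant clones and 25.7 and 23.2 CPM in KO_ERRg_wt. Its departures were -0.73 ± 0.07, -0.88 ± 0.07, -0.98 ± 0.07 and -0.31 ± 0.07, all called, and KO_ERRg_wt was above KO_ERRb_DBDm3 (0.42 ± 0.08, adjusted p = 0.00485).

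Palm3, a paralemmin of the plasma membrane, stood at 44.2 and 35.9 CPM in WT_mock, 23.6 and 22.3 CPM in KO_mock and 28.3 and 25.8 CPM in KO_ERRb_wt. It stood at 6.71 to 10.3 CPM in the 6 mutant clones and at 19.5 and 20.3 CPM in KO_ERRg_wt. Departures were -0.68 ± 0.12, -0.93 ± 0.12 and -1.22 ± 0.12 in the mutant groups (adjusted p = 0.0035, 0.00021 and 6.4e-05) and 0.32 ± 0.12 in KO_ERRg_wt (adjusted p = 0.053). Against WT_mock Palm3 was below the shift in KO_ERRg_wt as well (-0.54 ± 0.12, adjusted p = 0.0079). KO_ERRg_wt was higher than KO_ERRb_DBDm3 (1.00 ± 0.12, adjusted p = 0.00049). Zdhhc2, a palmitoyltransferase, stood at 8.67 and 9.82 CPM in KO_mock, 1.96 to 4.79 CPM in the 6 mutant clones and 11.0 and 11.4 CPM in KO_ERRg_wt. Again KO_ERRg_wt was above KO_ERRb_DBDm3 (1.40 ± 0.25, adjusted p = 0.0033). The 6 mutant clones were under the limit of 8 CPM, so Zdhhc2 passed it only through the groups where it is high. Its low level in the mutant groups and this comparison rest in part on that choice.

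Rasa3, a GTPase-activating protein of Ras, stood at 26.7 and 30.4 CPM in KO_mock and 11.8 and 8.38 CPM in KO_ERRb_AF2M6, a departure of -0.97 ± 0.16 (adjusted p = 0.00095). Zfhx3, a large transcription factor, stood at 22.4 to 24.9 CPM in the 6 unshifted clones and 7 to 13.9 CPM in the 8 shifted ones, and its departure was -0.98 ± 0.21 in KO_ERRb_AF2M6 (adjusted p = 0.0047). Its call in KO_ERRb_DBDm3 (-0.65 ± 0.21, adjusted p = 0.046) was lost without clone 12-1, 12-3 or 9-6 (adjusted p = 0.14, 0.17 and 0.17). Nfat5, the transcription factor of the response to osmotic stress, stood at 31.1 and 30.1 CPM in KO_mock, 11.5 to 14.2 CPM in the 6 mutant clones and 17.7 and 17.9 CPM in KO_ERRg_wt. Zdhhc7, another palmitoyltransferase, stood at 38.1 and 37.1 CPM in KO_mock and 12.8 to 20.1 CPM in the 8 clones. Rhou and Sh3rf1 were below the shift in KO_ERRb_DBDm3, calls lost without clone 12-3 (adjusted p = 0.067 and 0.083), the latter also without 12-1 or 9-8 (adjusted p = 0.058 and 0.065).

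In KO_ERRg_wt the members furthest below the shift included Ldhd, Hmgxb4, Cers4, Gas8 and Apela. Hmgxb4, an HMG-box protein, stood at 214 and 225 CPM in WT_mock, 325 and 333 CPM in KO_mock and 251 and 269 CPM in KO_ERRb_wt. It stood at 205 and 194, 162 and 171, 190 and 176, and 120 and 115 CPM in the 4 shifted groups. Its departures from KO_mock were -0.19 ± 0.06, -0.49 ± 0.06, -0.32 ± 0.06 and -0.96 ± 0.06, while against WT_mock they were 0.33 ± 0.06, 0.04 ± 0.06, 0.20 ± 0.06 and -0.43 ± 0.06, with the first and the third called in the opposite direction (adjusted p = 0.0014 and 0.015). Gas8 stood at 9.54 to 15.5 CPM in the 8 shifted clones, below both KO_mock clones, where WT_mock had 13.6 and 15.4 CPM. Its departures were -0.38 ± 0.11, -0.97 ± 0.11, -0.68 ± 0.11 and -0.84 ± 0.11 against KO_mock. Against WT_mock they were 0.48 ± 0.11, -0.11 ± 0.11, 0.18 ± 0.11 and 0.02 ± 0.11, and the first was called, above the shift (adjusted p = 0.0040). Cers4, a ceramide synthase, stood at 53.1 and 45.8 CPM in KO_mock and 19.5 and 18.3 CPM in KO_ERRg_wt, with departures of -0.85 ± 0.17 against KO_mock and -0.90 ± 0.17 against WT_mock (adjusted p = 0.0029 and 0.0038).

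**Figure D5:**
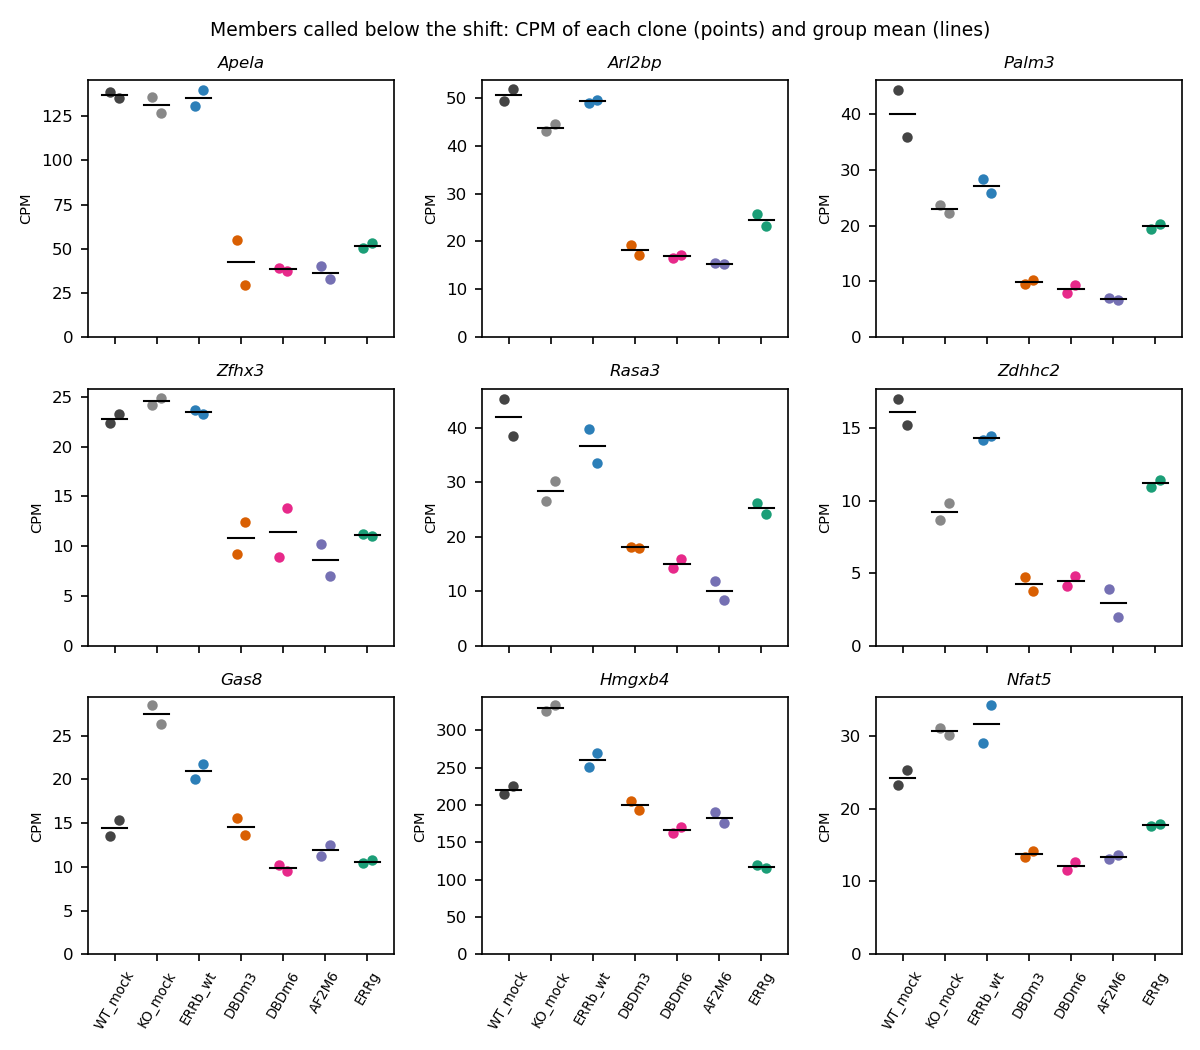
CPM (vertical axes, from 0) of 9 members called below the shift in at least 1 comparison with KO_mock, in the 7 groups (horizontal axes), with a point per clone and a line at the group mean. Apela lies at 29.5 to 55.1 CPM in the 8 shifted clones and at 127 to 140 CPM in the other 6, while Palm3 and Zdhhc2 are lowest in the 6 clones with mutant receptors.

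Compared directly with each other, the shifted groups differed in few or in many members depending on the pair, as they did over all tested genes. With KO_ERRb_DBDm3 as reference, the members called were 2.18% in KO_ERRb_DBDm6, 0.595% in KO_ERRb_AF2M6 and 26.8% in KO_ERRg_wt. Each of these lies near the share of all tested genes given below. KO_ERRb_DBDm6 against KO_ERRb_DBDm3 had 11 members called, where 3.06% of all tested genes were called, but edgeR called 0 members without clone 10-24 or 10-26, with 121 and 65 at an unadjusted p under 0.05. DESeq2 called 42 with all clones. Fat1 (-0.60 ± 0.13), Gas8 (-0.56 ± 0.11) and Mtus1 (-0.42 ± 0.09) were lower in KO_ERRb_DBDm6 and Mef2b, Wwc2, Plcg2 (phospholipase C gamma 2, 0.62 ± 0.12) and Kxd1 higher, with adjusted p from 0.025 to 0.044. Without clone 10-24 the adjusted p of these 7 was 0.086 to 0.16, and without 10-26 it was 0.14 to 0.29. Without clone 9-6, 85 members were called, and without 9-8 the number was 37. KO_ERRb_AF2M6 against KO_ERRb_DBDm3 had 3 members called (0.643% of all genes), among them Rasa3 (-0.84 ± 0.16, adjusted p = 0.041) and Mtus1 (-0.53 ± 0.09, adjusted p = 0.022), and 18 without 9-8, 13 without 32-25 and 59 without 9-6. Without clone 32-31 edgeR called 0, with 43 at an unadjusted p under 0.05, and DESeq2 called 15 with all clones. KO_ERRg_wt against KO_ERRb_DBDm3 had 135 members called (24.1% of all genes), 65 of them lower and 70 higher, and 41 without clone 14-1-10 or 43 without 14-11. Piezo1, a mechanically gated channel, was lower (74.2 and 126 CPM in KO_ERRb_DBDm3, 44.1 and 45 CPM in KO_ERRg_wt, -1.17 ± 0.20, adjusted p = 0.0030), as was Exoc3l (-1.57 ± 0.29, adjusted p = 0.0047). The dosage of chromosome 8 lay between -0.50 and -0.40 in all 8 clones, while single members differed between KO_ERRg_wt and KO_ERRb_DBDm3.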

How the data were processed

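The members and gene lists were chosen with earlier results of these data known. Libraries were stranded, from total RNA without ribosomal RNA, and were read as single 100-base reads, per the labels' protocols. The deposited values are raw counts per gene: reads were aligned to mm10 with STAR 2.7.8a, per the submitters' processing notes, and counted over exons by gene name with featureCounts on the reverse strand (2.0.1 per the file headers, 2.0.10 per the notes). Per the file headers, a read overlapping several genes was counted for each and multi-mapping reads were not counted. Exons of 13 members overlap another gene's on the same strand.

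Libraries were summed to 14 clones with 25103562 to 54105869 counts each. Counts were fitted in edgeR 4.0.16 (R 4.3.3; limma 3.58.1) by the quasi-likelihood test in 1 model of 7 groups with TMM factors (0.972 to 1.05), after the low-count filter had left 15238 genes, and p-values were adjusted over all of them (Benjamini-Hochberg, threshold 0.05). They rest on the spread between clones of the same group, pooled for each gene over the 7 groups and drawn toward that of similar genes. A second fit added each clone's member median as an offset for chromosome 8 genes. CPM was taken from library totals times TMM factors. Promoters came from RefSeq.

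Genes were named by rule: for KO_mock and KO_ERRb_wt, up to 8 called members each way with clones apart; per shifted group, the 8 highest above the shift with a fold change above 0 and the 6 lowest below it; 4 each way against KO_ERRb_DBDm3; the 10 most abundant; the 6 nearest to the shift; up to 4 per list; and 3 on each side of the limit. Names of predicted genes were passed over, and not every gene so chosen is reported here. Alternatives were other factors, filters, limits and references, DESeq2 1.42.0, limma-voom on libraries with a replicate block, and leaving out each clone.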

Additional observations from a re-analysis of the deposited data

Results flagged for a closer look

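Of 276 sets of 4 libraries (46 named members in the 6 groups with 4 libraries), 13 held 1 library far from the other 3 by Dixon's criterion for 4 values, which sets the gap to the nearest library against the whole range. That is 4.71%, and chance marks about 1 in 20 sets of 4 independent values. The 4 libraries here are 2 from each of 2 clones, so that rate need not hold for them. None of these marks was followed by a test.

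The outlying library was the highest of its group for Adgre5 in KO_ERRb_wt (6.72 CPM, with the lowest library at 4.79) and in KO_ERRb_AF2M6 (12.29 CPM, lowest 6.57). It was the highest as well for Ccdc102a (21.8 CPM, lowest 18.5) and Kxd1 (44.69 CPM, lowest 39.9) in KO_ERRb_DBDm3, and in WT_mock for Nfat5 (26.96 CPM, lowest 23.1) and Ssbp4 (88.28 CPM, lowest 74.8).

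It was the lowest of its group for Adgrg1 (9.334 CPM, highest 11.7), Apela (118.2 CPM, highest 136.9), Ssbp4 (31.97 CPM, highest 49.1) and Zdhhc7 (36.09 CPM, highest 38.3) in KO_mock. The same held for Calb2 in KO_ERRb_wt (30.52 CPM, highest 31.7), Plcg2 in KO_ERRb_AF2M6 (88.36 CPM, highest 101.1) and Zdhhc7 in WT_mock (30.72 CPM, highest 32.3).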

How the results depend on the processing

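The lower level of chromosome 8 in the 4 groups, relative to WT_mock or KO_mock, kept its direction under every alternative run. Mean dosage in KO_ERRb_DBDm3, KO_ERRb_DBDm6, KO_ERRb_AF2M6 and KO_ERRg_wt was -0.5435, -0.4988, -0.5400 and -0.5327 against KO_mock as reference, -0.5500, -0.5299, -0.5537 and -0.5213 without TMM factors, and -0.5273, -0.5057, -0.5336 and -0.5240 with TMM factors computed without chromosomes 6, 8 and 14. With a pseudocount of 5 it was -0.4284 in KO_ERRb_DBDm3, -0.4133 in KO_ERRb_AF2M6 and -0.4252 in KO_ERRg_wt, and with a limit of 16 CPM -0.4469 in KO_ERRb_AF2M6. KO_mock and KO_ERRb_wt stood at 0.0000 and -0.0029 against KO_mock, -0.0100 and 0.0256 without TMM factors and 0.0384 and 0.0196 with the 3 chromosomes left out of them. KO_ERRb_wt stood at 0.0529 at the limit of 16 CPM, and the 2 WT_mock clones differed by -0.0009 without TMM factors.

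With 1 clone left out, the members called ran from 75 to 172 for KO_mock against WT_mock, 0 to 6 for KO_ERRb_wt against KO_mock, and, against KO_ERRb_DBDm3, 0 to 85 for KO_ERRb_DBDm6, 0 to 59 for KO_ERRb_AF2M6 and 41 to 179 for KO_ERRg_wt. The members off the shift ran from 34 to 210 in KO_ERRb_DBDm3, 122 to 151 in KO_ERRb_DBDm6, 91 to 142 in KO_ERRb_AF2M6 and 115 to 130 in KO_ERRg_wt. Fewer clones were fitted each time. A lone clone was taken to vary like those of the other groups.

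DESeq2 called 38 members for KO_ERRb_wt against KO_mock, 42 for KO_ERRb_DBDm6 and 15 for KO_ERRb_AF2M6 against KO_ERRb_DBDm3. The limma-voom fit of single libraries with the replicate block called 21, 38 and 10. The cause was not tested. Deviations of same-numbered libraries correlated at -0.386 to 0.763 over 66 pairs of clones (median 0.0104, 26 over 0.1). Some pairs of clones thus deviated together by library number, while the median pair did not. Against WT_mock, an alternative chosen after seeing the data, 239 members were off the shift in KO_ERRb_DBDm3 and 109 in KO_ERRg_wt. With 2 clones in each group, differences within a group's clone spread were not detectable.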
